A study of Mus musculus with 19 samples.

Results

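Day 30 mo-KC replicates 3 to 5 were compared with em-KC replicates 1 to 3 from WT mice. Kupffer cells (KCs) are the resident macrophages of the liver. Em-KCs are KCs of embryonic origin, and mo-KCs are KCs that developed from monocytes after the em-KCs had been removed with diphtheria toxin (DT). The 6 arrays were chosen by their sample titles from the 19 arrays of the series, each holding RNA of sorted mouse KCs. The mo-KCs came from KC-DTR mice (genotype DTR Tg) 30 days after 50 ng of DT. In these mice a cassette coding for a yellow fluorescent protein and the human DT receptor lies in the untranslated region of Clec4f downstream of its stop codon, so that DT kills the cells that express Clec4f. The WT em-KCs (genotype DTR WT) came from mice without the cassette, and their labels name no DT. Mice were 6 to 12 weeks old on a C57Bl/6 background. The groups therefore differ at the same time in genotype, in DT, in the depletion of KCs and in the origin of the cells, and the parts of these in any difference below cannot be told apart. The samples are labelled as biological replicates, and whether animals were pooled is not given in the sources used here.

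KCs line the liver sinusoids, where they take up dying cells, aged red cells, bacteria and modified lipoproteins from the blood. They do so with receptors such as Timd4, which binds phosphatidylserine on dying cells, Cd163, which binds the haptoglobin-haemoglobin complex, and Marco, a scavenger receptor for bacteria and particles, and they recycle the iron of red cells and secrete complement proteins. Clec4f is a C-type lectin restricted to KCs. Monocytes that enter an emptied KC niche switch on most of this programme, and Timd4 is widely used to mark macrophages that have been resident for long. The comparison addressed how far mo-KCs had reached the transcriptome of em-KCs at day 30.

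Expression is given as log2 values after Robust Multi-array Average (RMA), so that a difference of 1 is a 2-fold difference. A gene was called where its adjusted p from limma was below 0.05 (Benjamini-Hochberg over 19938 genes). Over all genes the arrays correlated with r between 0.9828 and 0.9832 within the WT em-KCs, between 0.9857 and 0.9892 within the mo-KCs and between 0.9716 and 0.9781 across the groups. The labels name neither the sex of the mice nor an array batch for single samples. Xist, which coats the silent X chromosome of females, was 9.06, 9.21 and 8.72 in the WT em-KCs and 9.51, 9.04 and 9.35 in the mo-KCs. No gene among 11 sex-linked genes was called, beside 4.15% of all genes. Day 30 mo-KC replicates 1 and 2 had Xist at 4.20 and 4.11, and a further 8 em-KC arrays, from KC-DTR mice without DT and from their littermates with or without DT, had 4.11 to 4.53. These 8 arrays are called colony em-KCs below. Comparisons of the 6 arrays with these other arrays therefore also differ in the level of sex-linked genes. All 6 arrays had high levels of genes that define KCs and macrophages, with Clec4f at 10.66 or more, Vsig4 at 12.75 or more, Adgre1 at 11.70 or more and Csf1r at 11.95 or more.

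In all, 827 genes (4.15%) were called, of which 509 (2.55%) were higher in mo-KCs and 318 (1.59%) were lower, so that 61.5% of the calls were higher. With each array centred on its median the calls were 659 higher and 262 lower (71.6% higher). Among the called genes, 144 were higher and 106 were lower by at least 2-fold. The lower genes were led by Ifi208, Cd209f, C2, Plg, Timd4 and Raver2, and the higher genes by Gdf3, Tspan32, Ccr3, Rpa3, Lgals1 and Cd207. For 11382 genes (57.1%) the 95% interval of the difference lay within 1.5-fold in either direction, and for 5469 genes (27.4%) the groups did not overlap. Among the genes of that second kind were all 827 called genes. The median half-width of the 95% interval was 0.34. Recovery was tested on simulated data with 3 arrays per group and 200 changed genes. There the fit called 17.9% of genes changed by 1.5-fold, 49.3% of those changed by 2-fold and 95.5% of those changed by 4-fold. The share recovered depends on how many genes change, and data with more changed genes were not simulated.

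**Figure D1:**
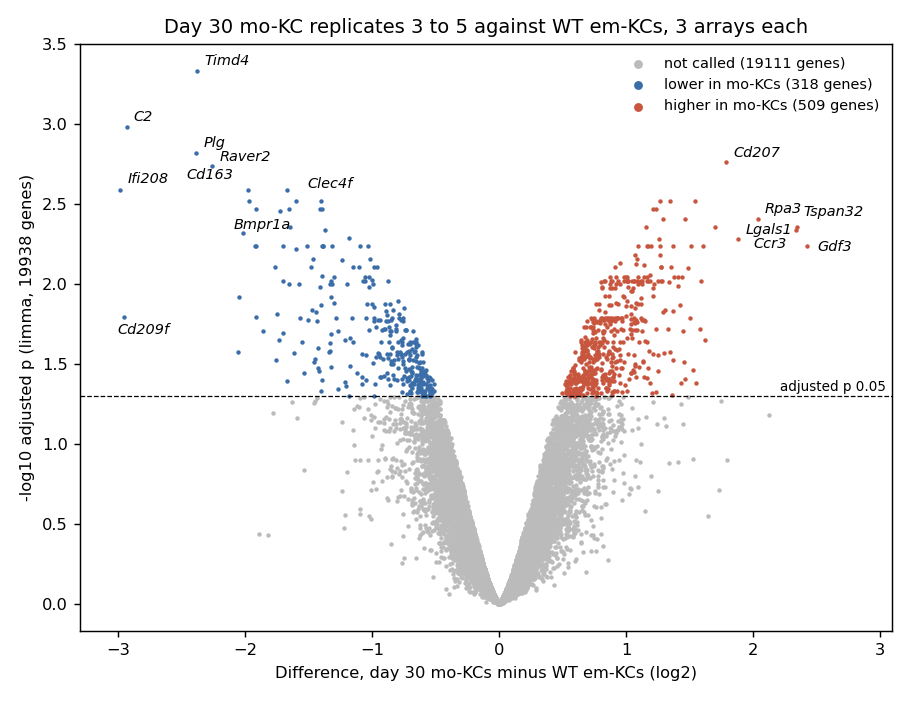
Each point is 1 of 19938 genes, with the log2 difference of day 30 mo-KC replicates 3 to 5 minus WT em-KCs on the x axis and -log10 of limma's adjusted p on the y axis, and the dashed line marks an adjusted p of 0.05. The 318 lower genes reach differences of -2.99 (Ifi208) and the 509 higher genes reach 2.43 (Gdf3).

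Each fit without 1 array has a smaller group and less precision, and the number of calls fell in all 6 of them. It was 213, 322 and 263 without mo-KC replicate 3, 4 or 5, and 314, 588 and 380 without WT replicate 1, 2 or 3. Of 94 called genes that were named by a rule, 39 passed in each of these 6 fits, 40 passed in 0 to 2 of them and 15 in 3 to 5. Those that passed in none were Ccnb2, Colec10, Ctsa, Ctsd, Cxcr6, Elovl5, Fosl2, Hspe1, Ndufb3, Pcna, Pf4, Spic, Tcf21, Uhrf1 and Unc93b1. Further genes were named after their values had been seen. Hepatocyte transcripts moved with the groups, as described below. With the mean of the hepatocyte markers as a covariate in a fit of all 19 arrays, 5 genes were called for the same 6 arrays. All were lower in mo-KCs (C2, Timd4, Raver2, Xlr and Helz2). The fit of all 19 arrays without the covariate gave 3067 calls. The marker mean was 8.42 to 8.50 in WT em-KCs, 6.87 to 7.57 in mo-KC replicates 3 to 5 and 6.56 to 7.22 in colony em-KCs. The covariate thus moved largely with the WT group, so this fit cannot tell hepatocyte signal and group apart. In sorted cells measured in bulk, fewer cells of a type and less RNA per cell cannot be told apart.

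Of 43 measured KC identity genes 13 (30.2%) fell in mo-KCs, beside 1.59% of all genes, and 1 (2.33%) rose, beside 2.55%. Their median difference was -0.33 beside -0.04 over all genes. Their mean level was between 10.39 and 10.47 in WT em-KCs and between 9.75 and 9.89 in mo-KCs, without overlap. For 16 of the 43 genes, among them Vsig4 (-0.17), Folr2 (-0.06) and Slc16a9 (-0.03), the 95% interval lay within 1.5-fold. Over all genes the share with such an interval was 57.1%. The count of lower genes was 10, 8 and 6 without mo-KC replicate 3, 4 or 5, and 8, 10 and 8 without WT replicate 1, 2 or 3. It was 26 with the colony em-KCs as reference, 22 with all 11 em-KC arrays as reference, 25 with the spread from all 19 arrays and 3 with the hepatocyte covariate, where no KC gene was higher.

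Timd4, the phosphatidylserine receptor, had the smallest adjusted p of all genes. It was 11.99, 11.82 and 11.89 in WT em-KCs and 9.38, 9.56 and 9.63 in mo-KCs, a difference of -2.38 (standard error 0.13, adjusted p = 0.000461 from limma). The arrays of each group lay close together and the groups did not overlap. C2, a serine protease of the classical complement pathway, was 9.16, 8.98 and 8.97 in WT em-KCs and 6.06, 6.49 and 5.75 in mo-KCs (-2.94, standard error 0.19, adjusted p = 0.00103). Cd209f, a lectin of the DC-SIGN family whose probes may be shared with other family members, was 8.11, 8.91 and 8.67 in WT em-KCs and 4.77, 6.83 and 5.22 in mo-KCs (-2.95, standard error 0.47, adjusted p = 0.0161). Mo-KC replicate 4 lay above both other mo-KC arrays for Cd209f, and the gene was not called without mo-KC replicate 5 (-2.76, adjusted p = 0.0632) or without WT replicate 3 (-2.90, adjusted p = 0.0509).

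Cd163 was 10.71, 10.91 and 10.75 in WT em-KCs and 8.79, 9.11 and 8.55 in mo-KCs (-1.98, standard error 0.16, adjusted p = 0.00257). Clec4f, the gene that holds the cassette in KC-DTR mice and whose protein served to gate the cells, was 12.42, 12.49 and 12.60 in WT em-KCs and 10.95, 10.66 and 11.10 in mo-KCs (-1.60, standard error 0.15, adjusted p = 0.00299). All mo-KC arrays thus held less Clec4f RNA than all WT arrays although both groups were sorted as Clec4F+ cells. Marco was 10.91, 10.00 and 10.97 in WT em-KCs and 9.23, 9.62 and 9.05 in mo-KCs (-1.33, adjusted p = 0.033, called in 1 of the 6 fits without 1 array). For Marco, WT replicate 2 and mo-KC replicate 4 lay closest to the other group, without overlap.

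Further KC genes that fell in mo-KCs were Cxcl13 (-1.39), a chemokine that attracts B cells, Vcam1 (-1.06), an adhesion molecule, Xlr (-1.67), C4b (-0.99), C6 (-0.88), Cfp (-0.66), which encodes properdin, and Spic (-0.65), the transcription factor of red pulp and other iron-handling macrophages. For Xlr, mo-KC replicate 3 was at 8.16 while replicates 4 and 5 were at 6.78 and 6.64. The KC gene that rose was Cd207 (langerin), the lectin gene next to Clec4f on the chromosome. Cd207 was 10.32, 10.03 and 10.01 in WT em-KCs and 11.94, 11.85 and 11.93 in mo-KCs (1.79, standard error 0.13, adjusted p = 0.00172). Of 40 measured genes within 1 Mb of Clec4f, Cd207 was called and 39 were not (2.5% called, beside 4.15% of all genes).

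**Figure D2:**
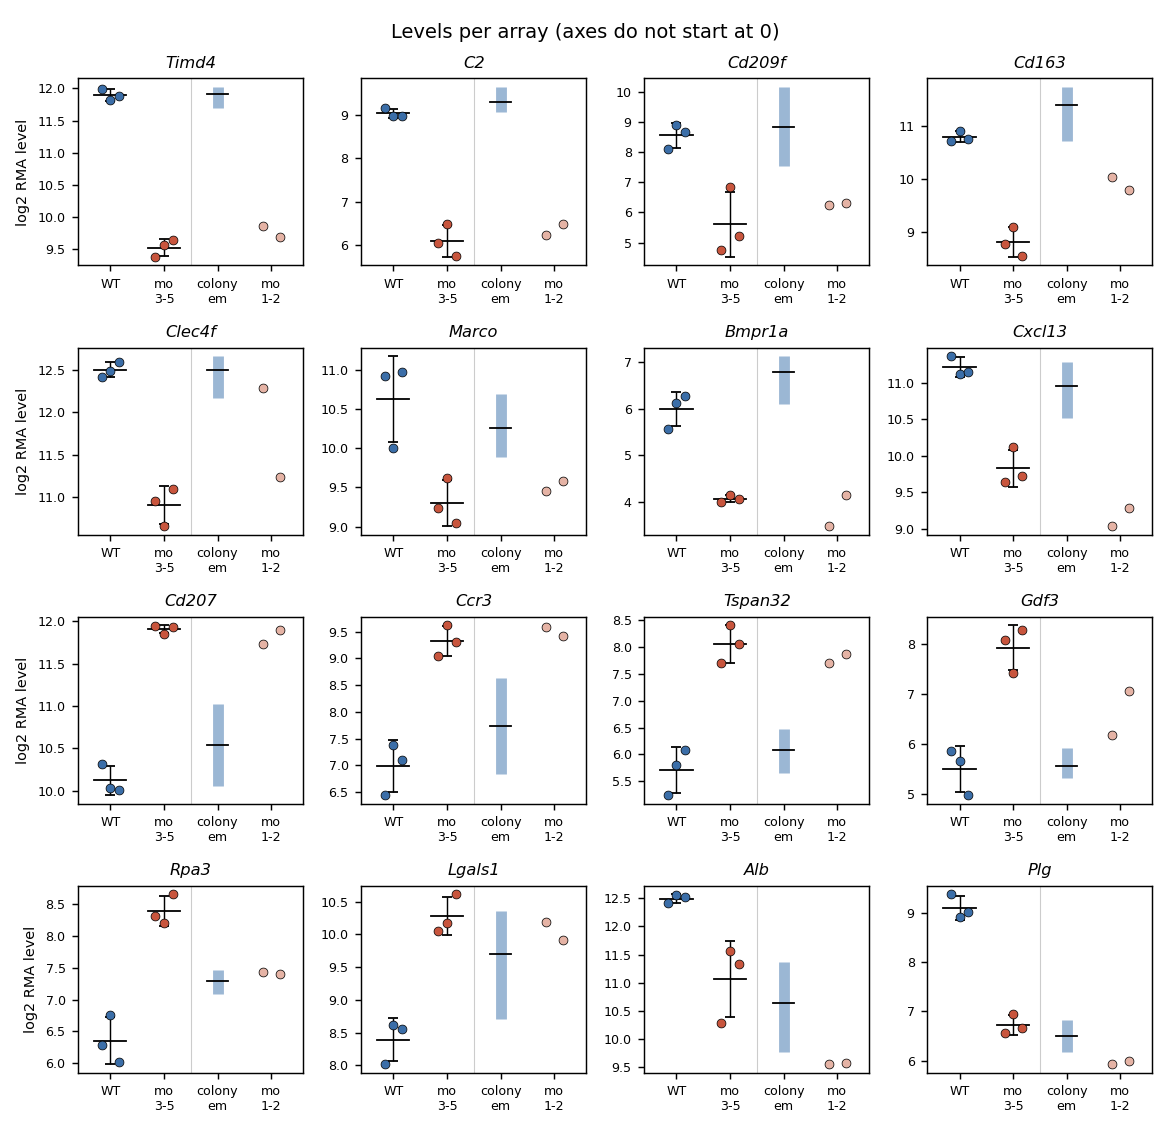
Log2 RMA level of 16 genes in each array, with WT em-KCs in blue and day 30 mo-KC replicates 3 to 5 in red (3 arrays each, line and bars giving mean ± SD), and for comparison the range and mean of 8 colony em-KC arrays (light blue) and day 30 mo-KC replicates 1 and 2 (light red). Timd4, C2, Cd207, Ccr3 and Tspan32 part mo-KCs from em-KCs in both sets of arrays, while for Rpa3 replicates 1 and 2 lie within the range of the colony em-KCs.

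Among the genes with the largest differences above WT em-KCs were a growth factor, a tetraspanin, a chemokine receptor and a galectin. Gdf3, a secreted ligand related to TGF-beta, was 5.86, 5.65 and 4.97 in WT em-KCs and 8.07, 7.41 and 8.28 in mo-KCs (2.43, standard error 0.28, adjusted p = 0.00576). Tspan32, a tetraspanin of haematopoietic cells, was 5.24, 5.80 and 6.09 in WT em-KCs and 7.71, 8.41 and 8.06 in mo-KCs (2.35, standard error 0.24, adjusted p = 0.00437). Ccr3, the eotaxin receptor, was 6.44, 7.39 and 7.11 in WT em-KCs and 9.05, 9.62 and 9.30 in mo-KCs (2.34, standard error 0.25, adjusted p = 0.00456). Ccr3 is known best from eosinophils. It was the 1 gene called among 16 eosinophil, basophil and mast cell markers (6.25% higher, beside 2.55% of all genes). The mean level of these markers was 5.01 to 5.05 in WT em-KCs and 5.07 to 5.23 in mo-KCs.

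Lgals1, which encodes galectin-1, was 8.02, 8.62 and 8.55 in WT em-KCs and 10.05, 10.18 and 10.61 in mo-KCs (1.89, standard error 0.20, adjusted p = 0.00524). Rpa3, a subunit of the protein that coats single-stranded DNA, was 6.28, 6.76 and 6.02 in WT em-KCs and 8.31, 8.21 and 8.66 in mo-KCs (2.04, standard error 0.20, adjusted p = 0.00389). Trps1 was 6.79, 6.85 and 7.42 in WT em-KCs and 8.79, 8.60 and 8.49 in mo-KCs (1.60). It encodes a GATA-type repressor, and its colony em-KCs were at 8.73 to 9.32, so that against these arrays the difference was -0.40. Insl6 (1.59), Akr1c13 (1.54), Usp31 (1.51) and Vmn2r9 (1.70) rose too, and like Gdf3, Tspan32, Ccr3, Lgals1, Rpa3 and Trps1 they passed in each of the 6 fits without 1 array. Prim1 (1.63), a primase subunit, passed in 4 of these fits, Gnpnat1 (1.58) and Slfn1 (1.53) in 2, and Fam136a (1.55) in 1. The colony em-KCs were at 7.28 to 8.10 for Usp31 and 8.72 to 10.36 for Lgals1, which overlaps mo-KC replicates 3 to 5. For Gdf3, Tspan32, Ccr3, Rpa3, Insl6, Akr1c13 and Vmn2r9 the colony em-KCs lay below mo-KC replicates 3 to 5.

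The lower genes outside the KC list were led by Ifi208, a member of the interferon-inducible Ifi200 family, with 7.11, 7.56 and 7.63 in WT em-KCs and 3.94, 4.47 and 4.93 in mo-KCs (-2.99, standard error 0.25, adjusted p = 0.00257). Raver2, an RNA-binding protein gene, was 7.23, 7.52 and 7.37 in WT em-KCs and 5.31, 5.27 and 4.77 in mo-KCs (-2.26, standard error 0.17, adjusted p = 0.00183). Bmpr1a, a type I receptor for bone morphogenetic proteins, was 5.57, 6.13 and 6.26 in WT em-KCs and 4.00, 4.14 and 4.07 in mo-KCs (-1.92, standard error 0.18, adjusted p = 0.00338). Of 39 measured genes of the BMP and TGF-beta pathway, Bmpr1a fell (2.56%, beside 1.59% of all genes). Gdf3 and Id2 (0.75) rose (5.13%, beside 2.55% of all genes), and 36 were not called. For 22 of the 39 the 95% interval lay within 1.5-fold, beside 57.1% of all genes.

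Of 22 scavenger receptor genes 4 (18.2%) fell, beside 1.59% of all genes, and none rose. Those that fell were Marco, Cd163, Colec12 (-1.40), which binds oxidized lipoprotein and yeast, and Scarb1 (-0.77), the receptor for high-density lipoprotein. Of 28 apoptotic cell receptors and bridging proteins Timd4 (3.57%) fell and 27 were not called. Sdc2 (-1.58), a heparan sulfate proteoglycan, Siglec1 (-0.75), the sialic acid receptor of macrophages, and Cd22 (-0.64) also fell. Sdc2 passed in each of the 6 fits without 1 array, Siglec1 in 2 and Cd22 in 1. Among 33 C-type lectin receptors 9.09% rose and 6.06% fell, beside 2.55% and 1.59% of all genes. The 3 that rose were Cd207, Clec4b1 (1.47) and Clec4a2 (0.66), the 2 that fell were Cd209f and Clec4f, and the median was 0.01.

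Among 35 genes for iron and heme, 9 (25.7%) fell in mo-KCs, beside 1.59% of all genes, and none was called higher. They were Cd163, Spic, Hmox1 (-0.62), which breaks down heme, Slc48a1 (-0.99), which exports heme from the lysosome, Trf (-0.73), Cp (-0.83) and Tfr2 (-0.58), and the plasma proteins Hpx (-1.97) and Hp (-1.41). Hpx and Hp are on the list of hepatocyte markers, and hepatocytes also make the plasma proteins encoded by Trf and Cp. The part of hepatocyte transcripts in this count was not tested. Slc40a1, the iron exporter ferroportin, was not called (-0.31, adjusted p = 0.159). The count of lower genes was 3, 5 and 4 without mo-KC replicate 3, 4 or 5, and 4, 5 and 5 without WT replicate 1, 2 or 3.

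Of 37 complement genes 8 (21.6%) fell, beside 1.59% of all genes, and none rose. Besides C2, C4b, C6 and Cfp these were Serping1 (-1.46), the inhibitor of the first component, C1s1 (-1.18), C8b (-1.08) and Hc (-0.94). C1s1 was low in all arrays, with 4.56, 5.51 and 4.30 in WT em-KCs and 3.61, 3.62 and 3.59 in mo-KCs, and it passed in 2 of the 6 fits without 1 array. The count was 4, 3 and 4 without mo-KC replicate 3, 4 or 5, and 3, 6 and 6 without WT replicate 1, 2 or 3. Several complement genes are also made by hepatocytes, and their part in these counts was not tested. Colony em-KCs were at 6.55 to 7.06 for Serping1 and 3.30 to 4.21 for C1s1, and both ranges overlap mo-KC replicates 3 to 5. Serping1 changed sign with the colony em-KCs as reference. In replicates 1 and 2 against the colony em-KCs 3 complement genes were called lower (C2, C4b and C6).

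Of 38 lysosome genes 6 (15.8%, beside 1.59% of all genes) fell by 0.51 to 0.79 (Gaa, Tpp1, Ctsa, Ctsd, Grn and Lgmn). No lysosome gene rose, and the median was -0.30. This count did not last when an array was left out, with 0, 1 and 0 lower genes without mo-KC replicate 3, 4 or 5, and 1, 2 and 1 without WT replicate 1, 2 or 3. Of 47 genes of lipid transport and metabolism 2 (4.26%) rose and 4 (8.51%) fell, beside 2.55% and 1.59% of all genes. The fatty acid binding proteins Fabp4 (8.33, 7.59 and 8.16 against 9.55, 9.23 and 9.53, a difference of 1.41) and Fabp5 (0.97) rose. The desaturases Fads2 (-1.04) and Scd1 (-0.87), Apoc1 (-0.79) and Lpcat3 (-0.65) fell. Of 30 genes of cholesterol and fatty acid synthesis 4 (13.3%) fell, namely Acly (-0.89), Elovl5 (-0.64), Fads2 and Scd1. Means in WT em-KCs, mo-KC replicates 3 to 5 and colony em-KCs were 7.52, 8.49 and 8.35 for Fabp5. They were 7.83, 6.78 and 6.67 for Fads2, 10.13, 9.49 and 9.60 for Elovl5, and 9.33, 8.43 and 9.11 for Acly. Colony em-KCs thus lay nearer to mo-KCs except for Acly. In replicates 1 and 2 against colony em-KCs, Apoc1 (-0.80) was the 1 gene of these lists called.

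Of 28 measured monocyte genes 7.14% rose and 7.14% fell, beside 2.55% and 1.59% of all genes. Ms4a4c (0.99) and Plac8 (0.95) rose, Fn1 (-1.52) and Hp fell, and the median was -0.18. Hp is on the list of hepatocyte markers, and without it the median of the remaining 27 genes was -0.11. Both Fn1 and Hp changed sign with the colony em-KCs as reference. The part of hepatocyte transcripts in these values was not tested. Plac8 was 10.71, 11.39 and 11.11 in WT em-KCs and 12.17, 11.83 and 12.07 in mo-KCs and passed in 1 of the 6 fits without 1 array. Ccr2, the receptor that lets monocytes leave the marrow, was not called (0.44, adjusted p = 0.442), nor were Cx3cr1 (0.57, adjusted p = 0.122), S100a8 (1.08, adjusted p = 0.126) or Itgam (-0.78, adjusted p = 0.0733). For 5 of the 28 genes the 95% interval lay within 1.5-fold, beside 57.1% of all genes.

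Of 14 genes of MHC class II presentation 1 (7.14%) rose, beside 2.55% of all genes. It was H2-Eb1, with 10.96, 11.22 and 10.90 in WT em-KCs and 11.96, 12.12 and 11.81 in mo-KCs (0.94, adjusted p = 0.0132). H2-Ab1 (0.54, adjusted p = 0.0513) and Ciita (0.43, adjusted p = 0.0737) were not called. Ciita, the master regulator of MHC class II, rose in replicates 1 and 2 against the colony em-KCs (0.82, adjusted p = 0.0095). Of 25 chemokines Pf4 (0.67) rose (4.0%) and Ppbp (-1.70) and Cxcl13 fell (8.0%, beside 1.59% of all genes). Of 23 chemokine receptors Ccr3 and Cxcr6 (0.93) rose (8.7%). Pf4 and Ppbp are both platelet chemokines and moved in opposite directions. Of 46 interferon-stimulated genes Ifit3 (1.09) and Slfn1 rose (4.35%) and Ifi208 fell (2.17%), and the median was 0.25. These shares were near those over all genes (2.55% and 1.59%). In WT em-KCs the mean level of that list was 8.78 to 9.17, and in mo-KCs it was 9.02 to 9.33, so the groups overlapped.

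Among 32 receptors for growth factors and cytokines Csf2rb2 (-1.17) and Il6ra (-0.57) fell (6.25%, beside 1.59% of all genes). Each passed in 1 of the 6 fits without 1 array, and in replicates 1 and 2 they were at -0.01 and 0.10. Of 39 inflammatory cytokine and NF-kB genes Cd83 (-1.27) fell (2.56%) and 38 were not called. Among 31 transcription factors of KCs and macrophages Klf2 (-0.81) and Spic fell (6.45%), Id2 rose (3.23%, beside 2.55% of all genes) and 28 were not called. Klf2 passed in 2 of the 6 fits without 1 array, Id2 in 1 and Spic in none. Nr1h3, the liver X receptor gene of KCs, was at -0.27 (adjusted p = 0.259) and Id3 at 0.23 (adjusted p = 0.297). Among 39 integrins and adhesion molecules Itgb7 (1.06) rose (2.56%), and Vcam1 and Sdc2 fell (5.13%).

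Of 54 measured hepatocyte markers 35 (64.8%) fell, beside 1.59% of all genes, and none rose. Their median difference was -1.33. The mean level of the 54 markers was 8.49, 8.50 and 8.42 in WT em-KCs and 6.87, 7.34 and 7.57 in mo-KC replicates 3, 4 and 5. Alb, which encodes albumin, was 12.41, 12.56 and 12.52 in WT em-KCs and 10.29, 11.56 and 11.34 in mo-KCs, a difference of -1.43 (standard error 0.29, adjusted p = 0.0335). Mo-KC replicate 3 lay lowest for Alb and for the list as a whole.

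Plg, which encodes plasminogen, was 9.39, 8.93 and 9.03 in WT em-KCs and 6.57, 6.96 and 6.66 in mo-KCs (-2.39, standard error 0.17, adjusted p = 0.00151). Ambp (-2.05), Itih4 (-2.02), Hpx (-1.97) and F2 (-1.92), all secreted plasma proteins of hepatocytes, fell as well. Hnf4a, the nuclear receptor that defines hepatocytes, was not called (-0.49, adjusted p = 0.21), and the same held for Cyp2e1 (-0.16, adjusted p = 0.777) and Arg1 (-0.22, adjusted p = 0.691). The count of lower markers was 23, 23 and 27 without mo-KC replicate 3, 4 or 5, and 21, 22 and 19 without WT replicate 1, 2 or 3. Against the 8 colony em-KC arrays in place of the WT arrays 1 marker was lower in mo-KC replicates 3 to 5 and 12 were higher, and against all 11 em-KC arrays none was called (limma, adjusted p below 0.05).

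None was called among 38 markers of liver sinusoidal endothelium, whose mean level was 8.24 to 8.88 in WT em-KCs and 8.37 to 8.75 in mo-KCs. None was called among 9 cholangiocyte, 16 neutrophil, 21 dendritic cell and 11 red cell markers either. Thy1 (-0.90) fell among 25 T and NK cell markers (4.0%) and Cd22 among 18 B and plasma cell markers (5.56%). Among 26 hepatic stellate cell markers Colec10 (0.68) rose (3.85%) and Ecm1 (-1.02) and Tcf21 (-0.63) fell (7.69%). Over all genes 4.15% were called, 2.55% higher and 1.59% lower.

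**Figure D3:**
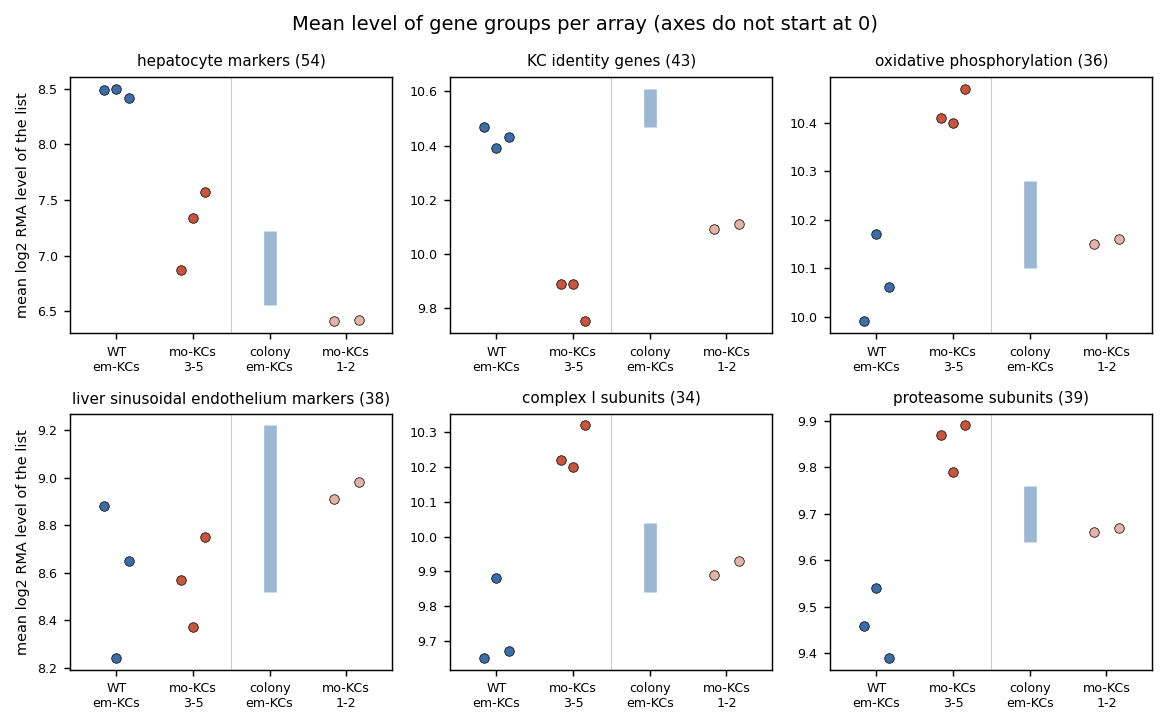
Mean log2 RMA level of 6 gene groups (number of measured genes in brackets) in each array, with WT em-KCs in blue, day 30 mo-KC replicates 3 to 5 in red, the range of 8 colony em-KC arrays in light blue and day 30 mo-KC replicates 1 and 2 in light red. Hepatocyte markers are highest in the WT em-KCs (8.42 to 8.50), and for oxidative phosphorylation the WT em-KCs lie between 9.99 and 10.17 and the mo-KCs of the 6 arrays between 10.40 and 10.47.

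Of 36 genes of oxidative phosphorylation 11 (30.6%) rose, beside 2.55% of all genes, and none fell. Their median difference was 0.30. Their mean level was 9.99, 10.17 and 10.06 in WT em-KCs and 10.41, 10.40 and 10.47 in mo-KCs. Cycs, which encodes cytochrome c, was 9.92, 9.95 and 9.85 in WT em-KCs and 11.11, 10.82 and 10.79 in mo-KCs (1.00, standard error 0.13, adjusted p = 0.00895). Ndufb8, a subunit of complex I, was 10.31, 10.50 and 10.17 against 11.12, 11.11 and 11.33 (0.86, standard error 0.14, adjusted p = 0.0161). The count of higher genes fell in each fit without 1 array. It was 1, 2 and 1 without mo-KC replicate 3, 4 or 5, and 1, 8 and 3 without WT replicate 1, 2 or 3. It was 0 with the hepatocyte covariate, which moved largely with the WT group. With all 5 day 30 mo-KC arrays it was 3, and with the colony em-KCs as reference 17.

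Other protein families were then counted, which were chosen after their values had been seen. Of 34 complex I subunits, which include those of the list above, 11 (32.4%) rose, beside 2.55% of all genes. So did 16 of 77 mitochondrial ribosome proteins (20.8%) and 9 of 39 proteasome subunits (23.1%). The same held for 6 of 23 LSm and Sm proteins of the spliceosome (26.1%) and 5 of 24 mitochondrial import and assembly proteins (20.8%). Of the last family Tomm34 (-0.69) fell, and in the others none fell. Of 61 cytosolic ribosomal proteins Rpl14 rose (1.64%) and the median was 0.21. In replicates 1 and 2 against the colony em-KCs the medians of these families lay between -0.04 and -0.01. The family counts were not repeated without single arrays. Lsm6 (1.41), Timm8a1 (1.37), Mrpl57 (1.19), Ndufb9 (0.89) and Psmb1 (0.88) were the members with the largest difference in their families. Lsm5 (1.36) came next after Lsm6 in its family.

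Of 50 genes of cell cycle and DNA replication 6.0% rose and 2.0% fell, beside 2.55% and 1.59% of all genes. Mcm6 (0.99), Uhrf1 (0.58) and Pcna (0.55) rose and Ccnb2 (-0.68), the partner of a mitotic kinase, fell. Mcm6 was called in each of the 6 fits without 1 array, and Uhrf1, Pcna and Ccnb2 were called in none. Of 30 replication factor and primase genes, a family also chosen after its values had been seen, 9 (30.0%) rose, beside 2.55% of all genes. Among them were Rpa3, Prim1, Tipin (1.38), Rfc4 (1.28) and Rfc3 (1.10). The mean level of these 30 genes was 6.70 to 6.94 in WT em-KCs and 7.35 to 7.48 in mo-KC replicates 3 to 5. In the colony em-KCs it was 7.09 to 7.45, which overlaps replicates 3 to 5 and lies above the WT em-KCs.

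Of 7 small RNAs of the RNase P, RNase MRP, Y and telomerase kind, likewise chosen after the fact, 6 (85.7%) were called lower than in WT em-KCs. Over all genes the share called lower was 1.59%. The mean level of the 7 small RNAs was 8.64 to 8.90 in WT em-KCs and 7.54 to 7.86 in mo-KC replicates 3 to 5. It was 7.33 to 7.40 in replicates 1 and 2 and 7.26 to 7.65 in colony em-KCs. The WT em-KCs thus lay above the mo-KCs and above the colony em-KCs too, and 5 of the 7 differences of differences, the test described below, were called below 0. Rpph1, the RNA of RNase P, was 13.10, 13.26 and 12.91 in WT em-KCs and 11.12, 11.33 and 11.66 in mo-KCs (-1.72, standard error 0.17, adjusted p = 0.00349). The called higher genes spanned a median of 12.3 kb of the genome and the called lower genes 16.4 kb, beside 17.7 kb over all genes.

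**Figure D4:**
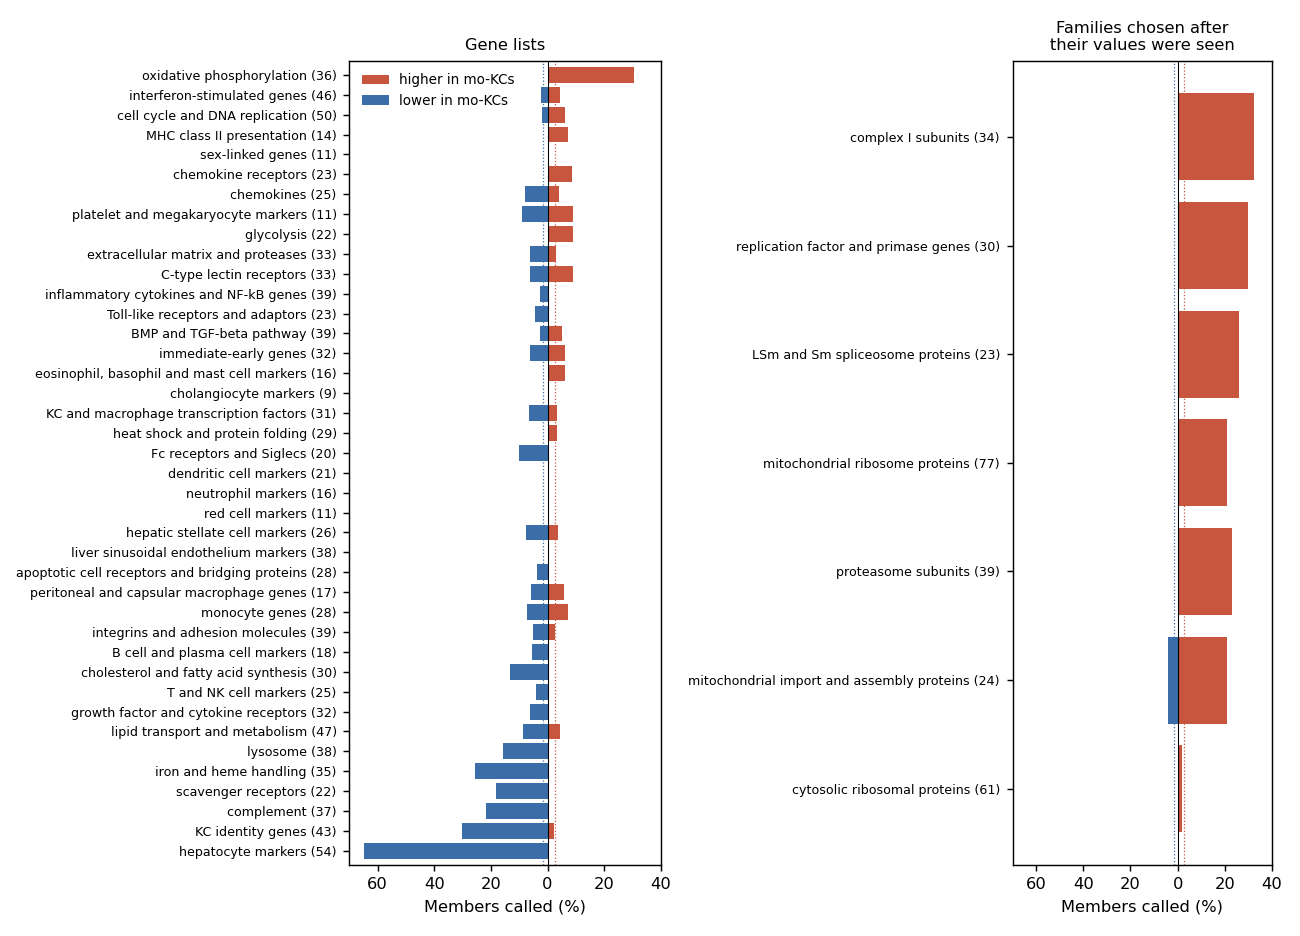
Share of the measured members of each gene list (number in brackets) that were called higher (red, to the right) or lower (blue, to the left) in day 30 mo-KC replicates 3 to 5 than in WT em-KCs, ordered by median difference, with dotted lines at the shares over all genes (2.55% and 1.59%). Hepatocyte markers (64.8%) and KC identity genes (30.2%) hold the largest shares of lower genes, and oxidative phosphorylation (30.6%) the largest share of higher genes among the lists on the left.

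The same question was put to arrays that share no sample with these 6. Day 30 mo-KC replicates 1 and 2, also from KC-DTR mice 30 days after 50 ng of DT, were compared with the 8 colony em-KC arrays. In that comparison 44 genes (0.221%) were called, 13 higher (0.0652%) and 31 lower (0.155%). These calls come from a fit of all 19 arrays and the 827 calls from a fit of the 6 arrays alone, so the counts are not on the same footing. With the spread from all 19 arrays the 6 arrays gave 3067 calls. Of the 44 genes, 23 were also called in the 6 arrays in the same direction and none in the opposite one, which is 52.3% of the 44 genes and 2.78% of the 827 genes.

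The 23 shared genes were 19 lower and 4 higher ones. The lower ones were C2, Timd4, Cd209f, Raver2, Cd163, Bmpr1a, Xlr, Sdc2, Colec12, Cxcl13, Klhl13, Ecm1, Btbd11, C4b, C6, Dcbld1, Apoc1 and the hepatocyte markers Ahsg and Fgg. The higher ones were Tspan32, Ccr3, Cd207 and Kcnab2. In 21 of the 23, all but Ahsg and Fgg, the 5 day 30 mo-KC arrays lay outside the range of the 11 em-KC arrays. The 23 genes were called on the values of these same arrays, so this count describes the calls and tests nothing.

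For several of these genes the differences were close in size. C2 fell by 2.94 in the 6 arrays and fell by 2.93 in replicates 1 and 2 (adjusted p = 5.21e-08). Timd4 fell by 2.38 in the 6 arrays and fell by 2.13 in replicates 1 and 2 (adjusted p = 5.21e-08). Apoc1 was at -0.79 and -0.80 and Kcnab2 at 0.82 and 0.90. Bmpr1a fell more in replicates 1 and 2 (-2.98 beside -1.92), and of the 23 genes it was the one whose difference of differences was called (1.06, adjusted p = 0.0409). Its levels in replicates 1 and 2 were 3.48 and 4.14, and its colony em-KCs were at 6.09 to 7.13 while the WT em-KCs were at 5.57 to 6.26.

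Clec4f was not called in replicates 1 and 2 (-0.74, adjusted p = 0.153), where replicate 1 was at 12.29 and replicate 2 at 11.24. Its difference of differences did not pass either (-0.86, adjusted p = 0.0761). Insl6 was at 1.56 in replicates 1 and 2 (adjusted p = 0.0683) beside 1.59 in the 6 arrays, and Ifi208 was at -2.03 (adjusted p = 0.0709) beside -2.99. Cx3cr1, the fractalkine receptor, rose in replicates 1 and 2 (1.55, adjusted p = 0.00365) and was not called in the 6 arrays, and its difference of differences did not pass (-0.98, adjusted p = 0.112).

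The difference of the 6 arrays and that of replicates 1 and 2 were then tested against each other in 1 fit of all 19 arrays. This difference of differences was called for 740 genes (3.71%), 460 above 0 (2.31%) and 280 below 0 (1.4%), and 499 of the 827 called genes (60.3%) were among them. The 827 genes were called on 1 of the terms of this difference, so their share describes the calls and tests nothing. Without mo-KC replicate 1 or 2 the 740 genes became 151 or 225, with a single array left in that group whose spread was taken from the other groups, and without mo-KC replicate 5 they became 482. With the hepatocyte marker mean as a covariate, which moved largely with the WT group, 22 genes were called.

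Rpa3 (1.92, adjusted p = 0.00213), Gnpnat1 (1.69, adjusted p = 0.0267) and Fam3b (1.60, adjusted p = 0.0089) were furthest above 0, and Ppbp (-1.92, adjusted p = 0.00801), Plg (-1.84, adjusted p = 0.00213) and Cyp4a14 (-1.75, adjusted p = 0.00983) furthest below it. For Rpa3 the colony em-KCs were at 7.09 to 7.47 and replicates 1 and 2 at 7.43 and 7.41, so that the WT em-KCs lay below all of these arrays and mo-KC replicates 3 to 5 above them. Complex I subunits had a mean level of 9.65 to 9.88 in WT em-KCs, 9.84 to 10.04 in colony em-KCs, 9.89 to 9.93 in replicates 1 and 2 and 10.20 to 10.32 in replicates 3 to 5. Replicates 3 to 5 lay above these other arrays in the mean of complex I, while WT and colony em-KCs overlapped.

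Of the 36 genes of oxidative phosphorylation 14 had a called difference of differences above 0, beside 2.31% of all genes, and none below. Their median difference in replicates 1 and 2 was -0.04. Proteasome subunits were at 9.39 to 9.54 in WT em-KCs, 9.64 to 9.76 in colony em-KCs, 9.66 to 9.67 in replicates 1 and 2 and 9.79 to 9.89 in replicates 3 to 5. Hepatocyte markers were at 6.56 to 7.22 in colony em-KCs and at 6.41 to 6.42 in replicates 1 and 2, where 2 of the 54 fell and the median was -0.41. Their difference of differences was called below 0 for 11 markers, beside 1.4% of all genes.

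Of the 43 KC identity genes 8 fell and 1 rose in replicates 1 and 2, beside 0.155% and 0.0652% of all genes. Their median was -0.12, and 1 gene, Cfp (-0.57, adjusted p = 0.0163), had a called difference of differences. Of 38 lysosome genes none was called in replicates 1 and 2. The difference of differences was called below 0 for 6 of them and above 0 for 1, beside 1.4% and 2.31% of all genes. Among the 509 genes higher in the 6 arrays the median difference in replicates 1 and 2 was 0.01, and among the 318 lower genes it was -0.10.

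WT em-KCs stood apart from the colony em-KCs in the called genes. Of the 509 higher genes 495 (97.2%) had a lower mean in WT em-KCs than in colony em-KCs, beside 43.5% of all genes, and of the 318 lower genes 290 (91.2%) had a higher mean there, beside 56.5% of all genes. Replicates 3 to 5 lay above replicates 1 and 2 for 399 (78.4%) of the 509 higher genes and below them for 203 (63.8%) of the 318 lower genes. These counts use the WT and mo-KC values from which the genes were called, so they describe the calls and test nothing.

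**Figure D5:**
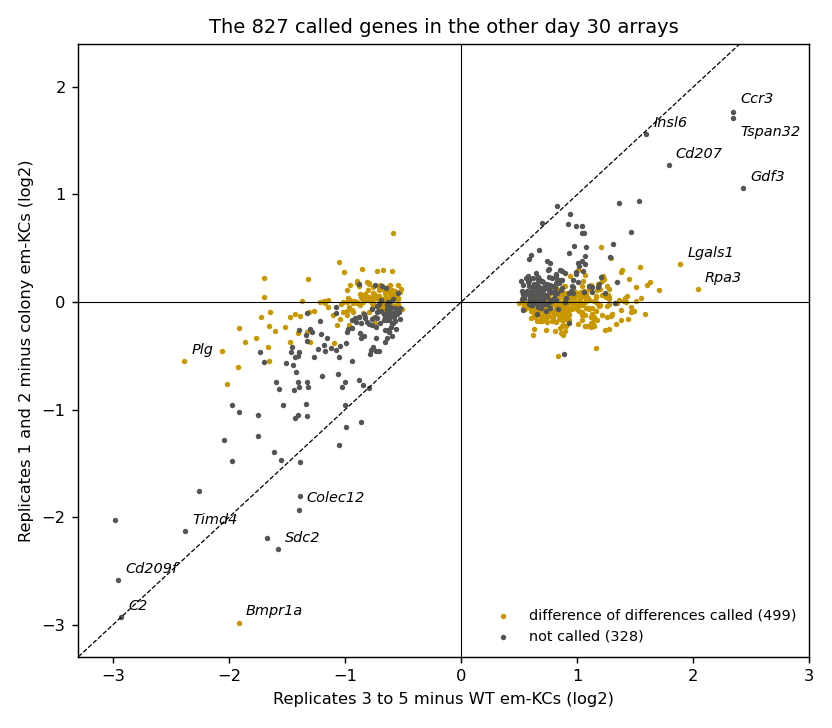
Each point is 1 of the 827 called genes, with its log2 difference in the 6 arrays on the x axis and its log2 difference between day 30 mo-KC replicates 1 and 2 and 8 colony em-KC arrays on the y axis. Points on the dashed line have the same difference in both, as C2 and Timd4 nearly do, and the 499 genes with a called difference of differences are in yellow.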

How the data were processed

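KCs were sorted from digested livers as live CD45+ cells positive for Clec4F, with Ly6C+ cells and granulocytes gated out, and their RNA was measured on Affymetrix Mouse Gene ST arrays, 1 per sample. The authors deposited log2 values per probeset made by RMA with quantile normalization between arrays. The sources used here give neither software versions nor the genome build. Of 35556 probesets the 21789 with exactly 1 gene symbol in the platform annotation were kept, while 12146 without a symbol and 1621 with several were dropped. The probeset with the highest mean over the 19 arrays was taken for each gene, which left 19938 genes. No pair of arrays was identical.

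The 6 arrays were fitted with limma 3.58.1 (lmFit and eBayes) in R 4.3.3 with no covariate, two-sided, with Benjamini-Hochberg adjustment and a threshold of 0.05. A second fit of all 19 arrays gave the comparison of replicates 1 and 2 with the colony em-KCs and the difference of differences. Genes named are up to 15 higher and 15 lower called genes with the largest difference and no overlap, up to 4 called members per list, the 3 highest members of lists of other cell types, Clec4f, Cd209f, Timd4, Xist and Eif2s3y, and up to 5 genes in each direction for the difference of differences. Any other gene in the text was picked with its values in view. The arrays, gene lists and rules were chosen with earlier results of these data known, so their counts are descriptions. Alternatives covered the reference arrays, the spread, the probeset, dim genes, normalization, variance model, threshold, the methods' t-test, a hepatocyte covariate, the replicate number as a block and each array left out in turn. On simulated data (200 changed genes) the fit was tested for recovery, and it called 6 unchanged genes. P-values set each difference of means against the spread between these samples, which limma moderates across genes. The number of arrays limits the precision. Genome spans come from the RefSeq table.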

Additional observations from a re-analysis of the deposited data

Results flagged for a closer look

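Of 123 named genes examined within the 5 day 30 mo-KC arrays, 4 had 1 array far from the other 4 by Dixon's criterion, which marks about 1 in 20 groups by chance. Bmpr1a was 3.48 in replicate 1 and 4.00 to 4.14 in the others, C1s1 was 3.24 in replicate 1 and 3.59 to 3.71 in the others, and Cd79b was 9.69 in replicate 1 and 9.37 to 9.45 in the others. Cxcr6 was 6.81 in replicate 4 and 5.99 to 6.21 in the others.

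For 45 named genes the log2 difference of the 6 arrays (replicates 3 to 5 minus WT em-KCs) departed from that of replicates 1 and 2 (minus colony em-KCs) in the test of the difference of differences, with an adjusted p from limma below 0.05. It lay above 0 for 22 genes. Those of 1 or more were Rpa3 (1.92), Gnpnat1 (1.69), Fam3b (1.60), Vmn2r9 (1.59), Timm21 (1.59), Lgals1 (1.53), Fam136a (1.52), Trps1 (1.45), Prim1 (1.44), Usp31 (1.37), Fabp4 (1.37), Akr1c13 (1.22), Cycs (1.07), Bmpr1a (1.06) and Ifit3 (1.06). The others were Fabp5 (0.89), Ndufb3 (0.89), Ndufb8 (0.89), Uqcrb (0.88), Hspe1 (0.75), Pgk1 (0.74) and Pcna (0.57).

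It lay below 0 for 23 genes. Those of -1 or less were Ppbp (-1.92), Plg (-1.84), Cyp4a14 (-1.75), Cyp2d26 (-1.68), Aadac (-1.60), F2 (-1.32), Fn1 (-1.29), Itih4 (-1.26), Cd83 (-1.18) and Csf2rb2 (-1.16). The others were Klf2 (-0.92), Fads2 (-0.89), Thy1 (-0.89), Acly (-0.88), Slc48a1 (-0.87), Fosl2 (-0.86), Siglec1 (-0.83), Scarb1 (-0.72), Gaa (-0.69), Il6ra (-0.67), Tpp1 (-0.66), Ctsa (-0.63) and Unc93b1 (-0.57). Bmpr1a is the one gene among those above 0 that fell in both comparisons. The other arrays also differ from the 6 arrays in sex-linked genes and in immediate-early genes, which are described below. The WT em-KCs among the 6 arrays also held more hepatocyte transcripts than the other arrays. The part of any of these in the values above was not tested gene by gene.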

How the results depend on the processing

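The 827 calls (509 higher, 318 lower) ranged from 213 to 588 when 1 of the 6 arrays was left out (120 to 392 higher, 93 to 196 lower), and the 765 calls of at least 1.5-fold from 213 to 588. With the spread taken from all 19 arrays there were 3067 calls (1542 higher, 1525 lower, 1381 of at least 1.5-fold), and 821 of the 827 genes were among them. With all 11 em-KC arrays as reference 641 genes were lower and 404 calls reached 1.5-fold, with 285 of the 827 genes called again. With the 8 colony em-KC arrays as reference there were 3106 calls (1214 higher, 1892 lower), 411 of them among the 827. With all 5 day 30 mo-KC arrays 485 genes were lower. At an adjusted p below 0.01 there were 133 calls (79 higher, 54 lower), all 133 of at least 1.5-fold. The methods' t-test gave 3624 genes at 0.05 without adjustment (1596 higher, 2028 lower) and 12 after Benjamini-Hochberg (6 higher, 6 lower, 6 of at least 1.5-fold). With the hepatocyte marker mean as a covariate, which moved largely with the WT group, there were 5 calls. Of these 0 were higher and 5 lower, all 5 of at least 1.5-fold. The other alternatives left these counts within 1.5 times.

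Only number 3 was shared by both groups, and the deviations of these 2 arrays correlated with r = 0 over genes, so the numbers are names only. With the replicate number as a block in the fit of 19 arrays 319 genes were higher and 281 lower (600 calls, 379 of them among the 827), the difference of differences was called for 17 genes, and 7 KC identity genes were lower and 3 genes of oxidative phosphorylation higher.

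The 740 calls of the difference of differences ranged from 151 to 924 without single arrays. They were 292 with the littermate em-KCs 30 days after DT as the colony reference, 22 with the hepatocyte covariate and 201 at an adjusted p below 0.01. The 44 calls of replicates 1 and 2 ranged from 12 to 15 without replicate 1 or 2, where a single array was left and assumed to vary like the other groups, and were 13 with that littermate reference, 16 with the covariate and 22 at 0.01.

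Of the 94 called named genes 0 changed sign when 1 of the 6 arrays was left out. The first value in brackets is the log2 difference under the alternative, and the second is that of the 6 arrays. With the 8 colony em-KC arrays as reference the difference changed sign for Trps1 (-0.40, 1.60), Plg (0.22, -2.39), Aadac (0.54, -2.06), Ambp (0.31, -2.05), Itih4 (0.55, -2.02), Hpx (0.074, -1.97), F2 (0.45, -1.92), Cyp2d26 (0.55, -1.92), Pzp (0.19, -1.91), Id2 (-0.011, 0.75), Fn1 (0.53, -1.52), Hp (0.29, -1.41), Serping1 (0.23, -1.46), Fads2 (0.11, -1.04), Btg2 (-1.31, 0.87), Ppp1r15a (-1.72, 0.74), Ccnb2 (0.19, -0.68), Alb (0.43, -1.43), Serpina1c (0.19, -1.18), Tcf21 (0.37, -0.63), Dcn (0.66, -0.31), Bank1 (-0.39, 0.07), Cd37 (-0.50, 0.02) and Cyp4a14 (0.30, -1.70). With all 11 em-KC arrays as reference the difference changed sign for Btg2 (-0.72, 0.87), Ppp1r15a (-1.05, 0.74) and Tcf21 (0.10, -0.63). With the hepatocyte marker mean as a covariate the difference changed sign for Insl6 (-0.19, 1.59), Hpx (0.071, -1.97), Hp (0.021, -1.41), Uhrf1 (-0.15, 0.58) and Alb (0.69, -1.43). The cause was not tested. Dcn, Bank1 and Cd37 are not among the called genes of the 6 arrays and were called with the colony reference. Genes called under neither setting are not listed. Of the 94 called named genes 54 kept their call and direction against the colony arrays, 48 against all 11 em-KC arrays and 3 with the covariate. Precision was limited by 3 arrays per group.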

Other observations

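Immediate-early genes, which are switched on within minutes of a stimulus or of cell handling, set the 6 arrays apart from the others of day 30 and of the colony. The mean level of 32 of them was 7.43 to 7.59 in WT em-KCs and 7.35 to 7.65 in mo-KC replicates 3 to 5, but 8.55 to 8.83 in replicates 1 and 2 and 8.19 to 8.83 in the colony em-KCs. Fos, chosen after its values were seen, was 6.92 to 8.14 in the 6 arrays, 10.73 and 10.37 in replicates 1 and 2 and 9.59 to 10.73 in the colony em-KCs. Within the 6 arrays Btg2 (0.87) and Ppp1r15a (0.74) rose (6.25%, beside 2.55% of all genes). Klf2 (-0.81) and Fosl2 (-0.70) fell (6.25%, beside 1.59% of all genes), and the median of the list was -0.03.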
